A study of Mus musculus with 8 samples.

Results

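The 48 genes described here are targets of ATF4 that make, import and charge amino acids, or that regulate the stress response around them. They are taken from 34199 genes counted by RNA sequencing in 8 libraries of immortalized granulocyte-macrophage progenitor-like cells (iGMPs), a mouse myeloid progenitor line of the C57Bl/6 strain that carries HOXA9 fused to the oestrogen receptor (ER-HOXA9) and a Lys-GFP reporter of lysozyme expression. The list was chosen by gene function, but with earlier results of these data known, among them the falls of Aldh1l2 and Trib3 in CAF-1 OFF cells. Every comparison of CAF-1 OFF with uninduced or IPTG control cells is therefore a description. Genes that pass the call there are counted, but the calls are not read as a test. It holds 10 stress regulators, 14 enzymes of amino acid synthesis, 9 transporters, 12 genes of tRNA charging and export and 3 other targets.

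Each group had 2 libraries. Uninduced cells were grown with 150 ng/ml beta-estradiol, which keeps HOXA9 active, and were taken at 0 h. IPTG control cells were given IPTG for 48 h with 150 ng/ml estradiol present and serve as a control. The labels state neither their dose nor their vector. The study's methods name a vector with a stuffer sequence as the control for IPTG induction. CAF-1 OFF cells were given 500 µM IPTG for 48 h with estradiol present, which switches on a short hairpin RNA against Chaf1b, a subunit of the histone chaperone CAF-1. The study describes such lines as clonal. HOXA9 OFF cells were washed and kept for 48 h without estradiol, which inactivates HOXA9 and lets the cells differentiate. A supplementary legend of the study speaks of RNA-seq of 2 independent sub-clones. The labels do not say which library is which sub-clone or whether a replicate number marks a sub-clone, so the p-values measure the spread between these libraries, which may be clonal or technical.

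ATF4 is a basic leucine zipper transcription factor whose messenger RNA is translated more efficiently when the initiation factor eIF2 is phosphorylated, as happens on amino acid shortage, endoplasmic reticulum stress, haem shortage or viral RNA. This is the integrated stress response. ATF4 binds with C/EBP partners to a composite element, the C/EBP-ATF response element or amino acid response element, and raises genes for serine, glycine, asparagine and proline synthesis, for amino acid uptake and for the aminoacyl-tRNA synthetases that load tRNAs. Dividing blood progenitors have a high demand for these products. The abundance of Atf4 messenger RNA, which is measured here, is not a measure of ATF4 protein.

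Promoter windows show which of these genes carry the core of that element beside their start. The core TGATGNAA, or its reverse complement TTNCATCA, was looked for on both strands in RefSeq promoters (GRCm38.p6, 250 bases before to 50 bases after the gene start). It was present in 16 of the 38 listed genes with an entry (42.1%), against 1219 of 27025 genes in the whole table (4.51%). The windows printed here are examples from genes with a core. They are those of the regulators Atf3 and Trib3, the enzyme gene Asns, the transporters Slc7a11 and Slc1a4 and the synthetases Gars and Yars. The core is in capitals, each window is 30 bases, and each reads 5′ to 3′ along the gene's strand.
Atf3: ccttctcgcacTTGCATCAccaagtccgcg
Trib3: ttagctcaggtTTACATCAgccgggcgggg
Asns: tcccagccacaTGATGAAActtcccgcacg
Slc7a11 upstream: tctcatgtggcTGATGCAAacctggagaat
Slc7a11 downstream: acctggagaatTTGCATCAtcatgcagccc
Slc1a4: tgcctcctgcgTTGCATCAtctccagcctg
Gars: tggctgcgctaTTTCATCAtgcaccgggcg
Yars: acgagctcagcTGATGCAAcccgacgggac
The Atf3 window is at chr1:191183425-191183454 on the minus strand, with its core starting 110 bases before the gene start. Trib3 has its core 14 bases after the start, in the window chr2:152344028-152344057 on the minus strand. The Asns window is chr6:7693214-7693243 on the minus strand, and the core starts 23 bases before the start. Slc7a11 has 2 cores facing each other, 66 and 47 bases before the start, in chr3:50443661-50443690 on the minus strand and chr3:50443642-50443671 on the minus strand. For Slc1a4 the window is chr11:20332699-20332728 on the minus strand, for Gars chr6:55037960-55037989 on the plus strand and for Yars chr4:129189895-129189924 on the plus strand. Their cores start 4 and 30 bases before and 3 bases after the gene start.

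The 16 genes held 18 cores, between 3 and 200 bases from the gene start, and in 13 of the 18 the open letter was C on the strand that reads TGATGNAA. The other genes with a core were Chac1, Nupr1, Pck2, Got1, Pycr1, Aars, Tars, Iars and Vldlr. By subgroup the core stood in 4 of 10 stress regulators, 4 of 12 enzymes of synthesis, 2 of 6 transporters, 5 of 8 genes of tRNA charging and export and 1 of 2 other targets with an entry. Of the lists outside these genes, 0 of 5 other cytosolic and 0 of 14 mitochondrial tRNA synthetases, 0 of 10 folate and 0 of 6 glutathione genes, 1 of 11 eIF2 genes, 1 of 14 chaperones and 1 of 9 dimer partners held it. In lists this small 0 or 1 gene is near the 4.51% of all genes. These matches describe letters and not binding. Aldh1l2, Cth, Slc7a5, Slc7a3, Slc1a5, Wars, Cars, Nars, Mars and Eif4ebp1 had no entry. Listed genes with an entry but no core included Atf4, Bcat1, Psat1, Phgdh, Shmt2, Gpt2, Aldh18a1 and Slc7a1.

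The libraries held 14044284 to 22423837 reads counted in genes. Chaf1b, the gene the hairpin targets, was at 96.8 and 100.3 CPM in uninduced, 95.1 and 102 CPM in IPTG control, 18.7 and 9.72 CPM in CAF-1 OFF and 48.3 and 41.0 CPM in HOXA9 OFF libraries. It was thus lowest in both CAF-1 OFF libraries, was near the uninduced level in the IPTG control, and fell in HOXA9 OFF cells, which were given no IPTG (-1.14, SE 0.25, FDR 0.00574 on the log2 scale). All 7 markers of granulocyte-macrophage progenitors were detected in each group. Against uninduced cells, all 6 neutrophil markers and the 3 tested macrophage markers were called higher in HOXA9 OFF cells, 4 of the 7 progenitor markers and 2 of 4 proliferation markers lower, where 25.2% of all tested genes were called higher and 22.1% lower. Elane, Prtn3 and Mki67 of the latter lists had log2 fold changes above zero without a call (0.70, 0.43 and 0.48). Summed over the neutrophil list the level was 47.4 to 64.2 CPM in uninduced, 47.5 to 67.0 CPM in IPTG control, 1141 to 2016 CPM in CAF-1 OFF and 5242 to 7654 CPM in HOXA9 OFF libraries. Mmp8 alone made up 1091 and 1937 CPM of the sums in CAF-1 OFF, where Ltf, which encodes the granule protein lactoferrin, was at 0.474 and 0.523 CPM. The macrophage list summed to 23.1 to 45.7, 21.2 to 46.6, 39.3 to 61.9 and 959 to 1415 CPM in the same order, with Marco at 0 in every library and C1qa at 0 outside HOXA9 OFF cells. The HOXA9 OFF libraries stood apart in C1qb (0.434 and 121 CPM) and C1qa (0 and 4.41 CPM). The progenitor list summed to 10666 to 14547 CPM in uninduced, 10881 to 13897 CPM in IPTG control, 15795 to 15825 CPM in CAF-1 OFF and 5566 to 7561 CPM in HOXA9 OFF libraries. The proliferation list summed to 1704 to 1715, 1654 to 1743, 1953 to 2056 and 1099 to 1475 CPM in that order. Mast cell and basophil markers (Cpa3, Mcpt8, Ms4a2 and Fcer1a) summed to 656 to 1043 CPM in CAF-1 OFF and to 139.8 to 221 CPM in the other libraries. Cpa3 (764 and 423 CPM) and Mcpt8 (267 and 228 CPM) made up most of the sums in CAF-1 OFF. Ms4a2 was at 11.2 and 5.54 CPM there, against 9.61 and 4.02 CPM in uninduced libraries, and Fcer1a at 0 and 0.0523 CPM. Erythroid markers summed to at most 2.14 CPM and lymphoid markers to at most 17.2 CPM in any library, with Cd3e at 0 throughout. The part of these shifts in the results below was not tested.

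HOXA9 inactivation lowered most of the list. Levels are counts scaled to library size and composition (CPM with TMM factors), a fold change is given as its log2, and a gene was called changed at a false discovery rate (FDR) under 0.05 and at least 1.5-fold in edgeR's quasi-likelihood test over all 13080 genes tested. Of the 48 genes 45 entered the test, and Cth, Vldlr and Stc2 were too low. In HOXA9 OFF against uninduced cells 36 were lower, 1 was higher and 8 were not called, where 22.1% of all tested genes were called lower and 25.2% higher. The 36 include Aldh1l2 and Trib3, whose uninduced levels had a part in their choice and whose values are therefore given as description. The median log2 fold change was -1.25 over the listed genes and 0.01 over all tested genes. Reads from the 48 genes made up 1.09 and 1.22% of all gene counts in the uninduced libraries and 0.336 and 0.444% in the HOXA9 OFF libraries. In RNA from bulk cultures, fewer cells of a type and less RNA per cell cannot be told apart. With library size alone as the scaling, 2715 genes were called higher and 3701 lower in place of 3293 and 2886, the median of all genes moved to -0.18 and that of the listed genes to -1.44, and 38 listed genes were lower and 1 higher.

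**Figure D1:**
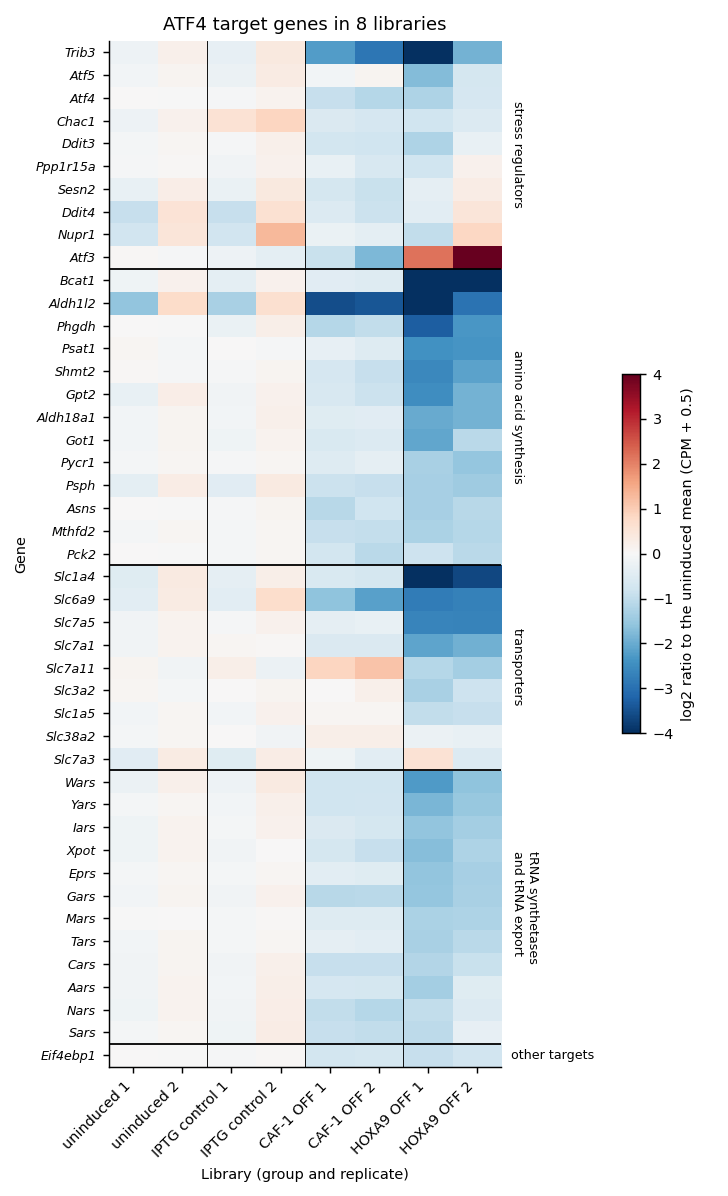
Log2 ratio of the level in each of the 8 libraries (columns) to the mean of the uninduced libraries, on CPM + 0.5, for the 45 tested genes (rows, grouped by function and ordered by their change in HOXA9 OFF cells). Blue is lower and red is higher, with colours ending at a log2 ratio of 4 in each direction. The HOXA9 OFF columns are blue in 36 called genes, while the Atf3 row is red there.

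The values of listed genes in CAF-1 OFF cells against the controls are a description. In CAF-1 OFF against uninduced cells 41 of the 45 genes had a fold change below zero, where 6369 of all 13080 tested genes did. The median of the listed genes was -0.73, against 0.01 over all tested genes. Here 17 genes passed the call as lower and 1, Slc7a11, as higher, where 3.50% of all tested genes were called lower and 10.5% higher. Against the IPTG control 19 were lower and 1 higher, with 3.20% and 9.56% of all genes. Nothing is read from these counts, since the list was drawn up with this contrast known, and they rest on every library: without uninduced replicate 1, uninduced replicate 2, CAF-1 OFF replicate 1 or CAF-1 OFF replicate 2 the count of 18 against uninduced became 2, 5, 10 and 2. Both contrasts share the CAF-1 OFF libraries. At this call the IPTG control itself did not differ from uninduced cells in any of 13080 genes in edgeR (0% higher, 0% lower). DESeq2 called 5 genes. An unadjusted p under 0.05 in edgeR was reached by 100 genes, fewer than a share of 0.05 of those tested. The test was thus cautious here, and a missing call does not show that the groups were equal. Among the listed genes only Chac1 had an unadjusted p under 0.05 in that comparison (0.80, SE 0.28, FDR 1.00).

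Set directly against each other, the OFF conditions differed in 23 of the 45 genes. This comparison holds the CAF-1 OFF libraries whose levels of Aldh1l2 and Trib3 were known when the list was made. Of the 23 genes 22 were higher and 1 was lower in CAF-1 OFF than in HOXA9 OFF cells, where 22.2% of all tested genes were called higher and 21.4% lower, and the median log2 fold change was 0.64 over the listed genes and 0.04 over all. Scaling by library size alone gave 3949 genes higher and 2064 lower in place of 2898 and 2797, with medians of 0.87 and 0.27. This comparison and that with uninduced cells share the HOXA9 OFF libraries. Of the 36 genes lower than in uninduced cells, 14 were not called between the OFF conditions: Atf4, Trib3, Asns, Psph, Mthfd2, Aldh1l2, Pck2, Slc6a9, Aars, Gars, Sars, Cars, Nars and Eif4ebp1. A missing call does not show that these were equal.

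**Figure D2:**
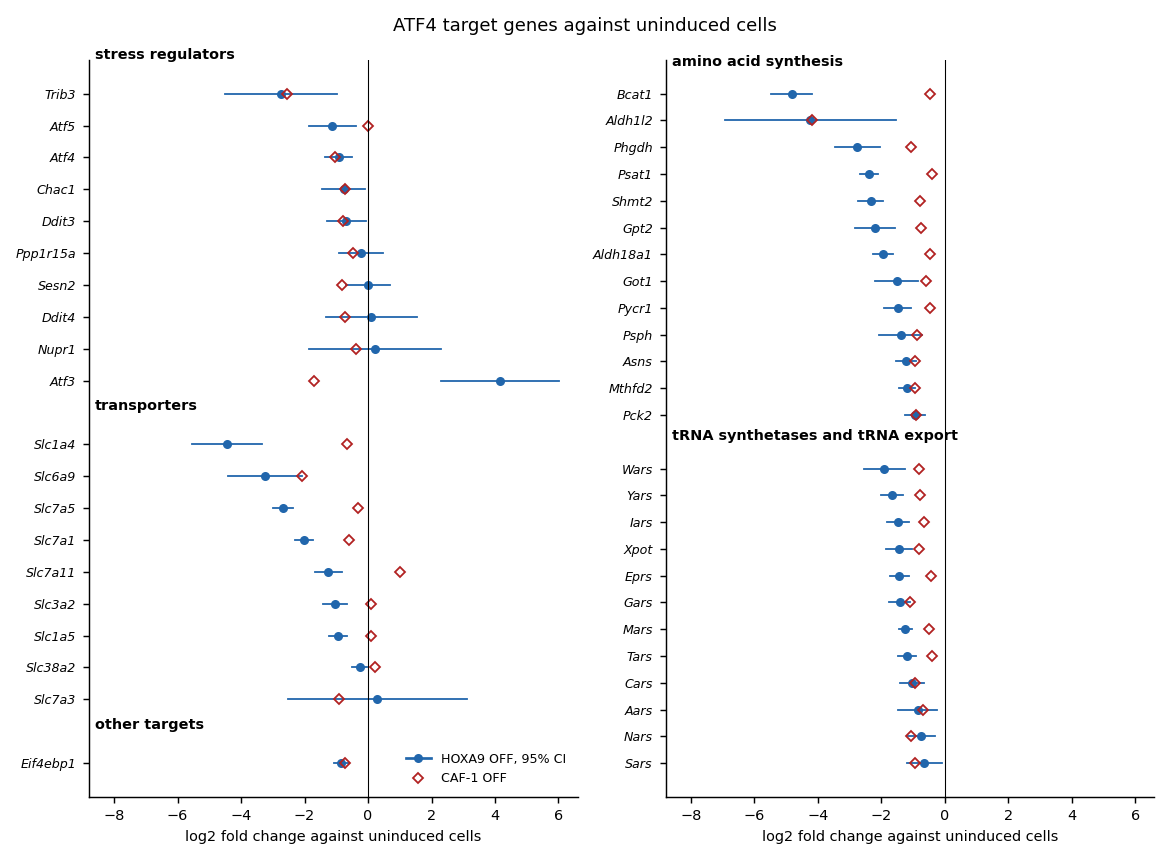
Log2 fold change against uninduced cells for the 45 tested genes, in HOXA9 OFF cells (filled circles, with bars for the 95% confidence interval) and in CAF-1 OFF cells (open diamonds, a description without a test). In amino acid synthesis the circles run from -4.83 for Bcat1 to -0.95 for Pck2, and Slc7a11 has its circle at -1.25 and its diamond at 1.01.

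Of the 10 stress regulators, 3 (Atf4, Atf5 and Trib3) were lower on HOXA9 inactivation, 1 (Atf3) was higher, and the other 6 were not called. These shares are near the 22.1% lower and below the 25.2% higher of all tested genes. Atf4 (mm9 chr15:80085614-80087970, plus strand) stood at 534 and 532 CPM in uninduced, 519 and 589.8 CPM in IPTG control, 279 and 243 CPM in CAF-1 OFF and 226 and 334 CPM in HOXA9 OFF libraries. All 4 OFF libraries lay below all 4 control libraries, and the libraries of the OFF conditions overlapped each other. Its log2 fold change was -0.93 (SE 0.18, FDR 0.00326) in HOXA9 OFF against uninduced cells, and -0.10 (SE 0.18, FDR 0.664) between CAF-1 OFF and HOXA9 OFF cells (95% interval -0.52 to 0.32), a value that was 0.13 with library size as the only scaling. CAF-1 OFF cells differed from uninduced cells by -1.03.

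Trib3, a pseudokinase that ATF4 induces and that dampens ATF4 and AKT signalling, was at 105 and 139.6 CPM in uninduced, 97.8 and 159 CPM in IPTG control, 25.6 and 15.9 CPM in CAF-1 OFF and 4.02 and 32.5 CPM in HOXA9 OFF libraries. The OFF libraries were again below the controls, but the HOXA9 OFF libraries were over 2-fold apart from each other. The log2 fold change was -2.74 in HOXA9 OFF cells, where leaving out HOXA9 OFF replicate 2 gave -4.93, leaving out HOXA9 OFF replicate 1 gave -1.91, and leaving out uninduced replicate 2 gave -2.52, which no longer passed the call. In CAF-1 OFF cells it was -2.56. Between the OFF conditions it was 0.18, and from -0.66 to 2.36 without 1 library. Atf5, a basic leucine zipper factor of the mitochondrial stress response, was at 135 and 157 CPM in uninduced, 125 and 183 CPM in IPTG control, 134 and 157 CPM in CAF-1 OFF and 44.0 and 90.2 CPM in HOXA9 OFF libraries. It fell on HOXA9 inactivation (-1.12, SE 0.32, FDR 0.0181) and was higher in CAF-1 OFF than in HOXA9 OFF cells (1.12, SE 0.32, FDR 0.0201), while in CAF-1 OFF against uninduced cells the difference was -0.0049. The first of these calls was lost without uninduced replicate 2 (-1.01, FDR 0.0856), and the second without CAF-1 OFF replicate 2 (1.00, FDR 0.0929) and in the fit of the compared groups only (1.11, FDR 0.0592). Without HOXA9 OFF replicate 2 they were -1.73 and 1.72.

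Atf3, a stress-induced factor that dimerizes with other leucine zipper proteins, was the 1 listed gene that rose in HOXA9 OFF cells. It was at 2.98 and 2.82 CPM in uninduced, 2.47 and 2.09 CPM in IPTG control, 1.32 and 0.470 CPM in CAF-1 OFF and 15.0 and 89.3 CPM in HOXA9 OFF libraries. Both HOXA9 OFF libraries were above every other library, and both CAF-1 OFF libraries below every other. The log2 fold change was 4.17 (SE 0.80, FDR 0.00290) in HOXA9 OFF against uninduced cells and -5.86 (SE 0.90, FDR 0.00124) in CAF-1 OFF against HOXA9 OFF cells. Without HOXA9 OFF replicate 2 these values were 2.37 and -4.07, without HOXA9 OFF replicate 1 they were 4.94 and -6.64, and without CAF-1 OFF replicate 1 the second was -6.77. CAF-1 OFF cells stood at -1.69 against uninduced cells.

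The 6 stress regulators without a call in HOXA9 OFF cells were Ddit3, Ddit4, Chac1, Sesn2, Nupr1 and Ppp1r15a. Ddit3, which encodes the factor CHOP, was at 162 and 177 CPM in uninduced, 162 and 197 CPM in IPTG control, 101 and 96.8 CPM in CAF-1 OFF and 71.8 and 138 CPM in HOXA9 OFF libraries, a log2 fold change of -0.69 (SE 0.27, FDR 0.0562) in HOXA9 OFF cells. It was called lower by DESeq2 (-0.67, FDR 0.0172) and, in edgeR, without a filter on low counts (-0.72, FDR 0.0181), with library size as the only scaling (-0.88, FDR 0.0257) and without HOXA9 OFF replicate 2 (-1.24, FDR 0.000358). Chac1, an enzyme that breaks down glutathione, was at 3.38 and 4.62 CPM in uninduced, 6.22 and 7.73 CPM in IPTG control, 2.53 and 2.35 CPM in CAF-1 OFF and 2.12 and 2.58 CPM in HOXA9 OFF libraries, with a value of -0.77 (SE 0.29, FDR 0.0514) that passed the call with library size as the only scaling (-0.96, FDR 0.0247) and without uninduced replicate 1 (-0.98, FDR 0.0493). For Sesn2, a leucine sensor that restrains mTORC1, the levels were 36.5 and 54.2 CPM in uninduced, 37.3 and 59.1 CPM in IPTG control, 27.9 and 24.0 CPM in CAF-1 OFF and 35.5 and 55.3 CPM in HOXA9 OFF libraries. The CAF-1 OFF libraries were the lowest, at -0.81 against uninduced cells. Between CAF-1 OFF and HOXA9 OFF cells the value was -0.81 (SE 0.30, FDR 0.0535) in edgeR and -0.83 with an FDR of 0.0136 in DESeq2. It was also called with DESeq2 size factors (-0.83, FDR 0.0484), without a filter on low counts (-0.80, FDR 0.0248) and without HOXA9 OFF replicate 1 (-1.10, FDR 0.0192). Ppp1r15a, or GADD34, which brings a phosphatase to eIF2, had a value of -0.23 (SE 0.30, FDR 0.545) in HOXA9 OFF cells, and of -0.80 (FDR 0.0155) without HOXA9 OFF replicate 2. Ddit4, an mTORC1 inhibitor also called REDD1, and Nupr1, a small stress-induced chromatin protein, had libraries far apart in the uninduced, IPTG control and HOXA9 OFF groups. Ddit4 was at 7.39 and 21.4 CPM in uninduced, 7.42 and 22.2 CPM in IPTG control, 9.74 and 7.74 CPM in CAF-1 OFF and 10.7 and 20.1 CPM in HOXA9 OFF libraries. Nupr1 was at 1.47 and 4.24 CPM in uninduced, 1.48 and 7.79 CPM in IPTG control, 2.32 and 2.04 CPM in CAF-1 OFF and 1.19 and 5.46 CPM in HOXA9 OFF libraries.

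**Figure D3:**
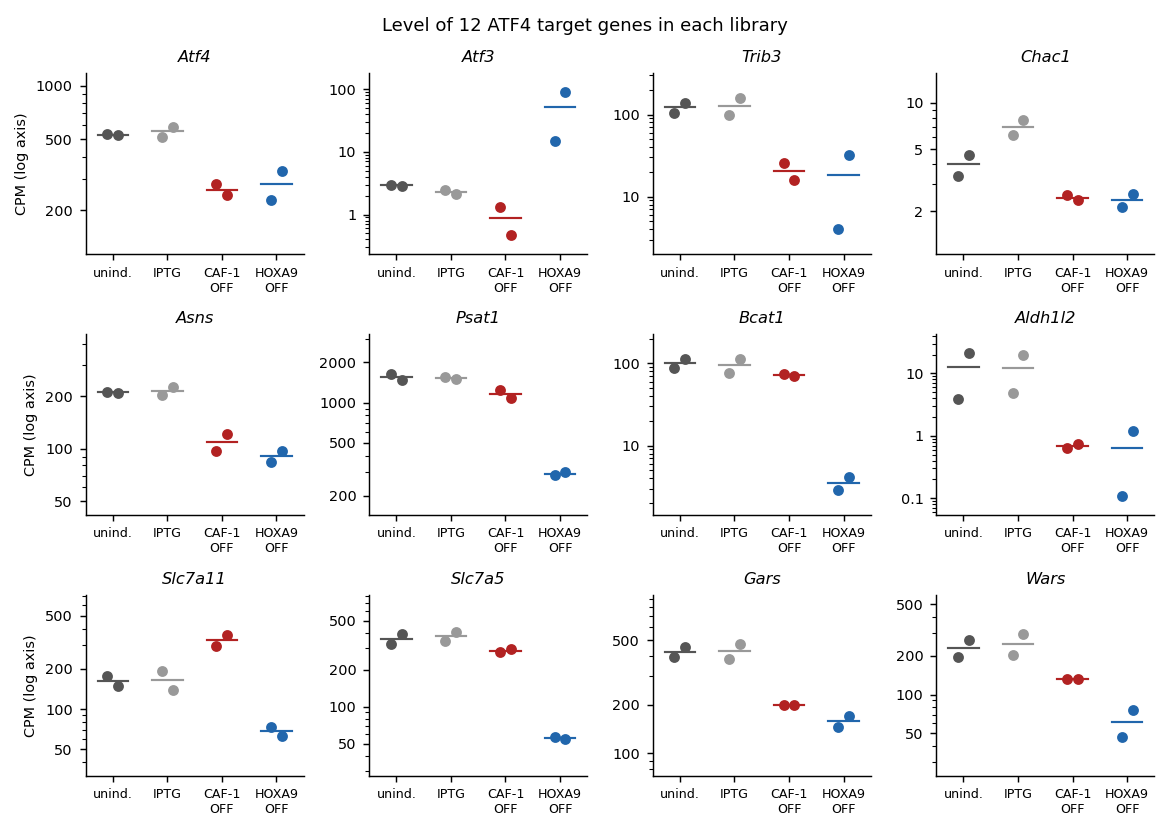
Level in CPM (log axis) of 12 listed genes in each library, with a point per library and a line at the mean of the 2 libraries of each group. Psat1, Bcat1, Slc7a5 and Slc7a11 are lower in HOXA9 OFF than in CAF-1 OFF libraries, whereas the libraries of the OFF conditions overlap in Atf4, Chac1 and Aldh1l2.

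All 13 tested genes of amino acid synthesis were lower in HOXA9 OFF than in uninduced cells (22.1% of all tested genes), with a median log2 fold change of -1.94. Of these 13, 8 were higher in CAF-1 OFF than in HOXA9 OFF cells (22.2%) and 5 were not called. Against uninduced cells the CAF-1 OFF values ran from -4.20 to -0.42.

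Bcat1, the cytosolic aminotransferase of leucine, isoleucine and valine (mm9 chr6:144942355-145024704, minus strand), had the lowest fold change of the list in HOXA9 OFF cells. It was at 88.4 and 113 CPM in uninduced, 76.0 and 114 CPM in IPTG control, 73.5 and 70.3 CPM in CAF-1 OFF and 2.88 and 4.17 CPM in HOXA9 OFF libraries. The HOXA9 OFF libraries stood far below the other 6, and the CAF-1 OFF libraries just below the controls. The log2 fold change was -4.83 (SE 0.28, FDR 1.67e-05) in HOXA9 OFF cells and 4.34 (SE 0.27, FDR 3.42e-05) in CAF-1 OFF against HOXA9 OFF cells. Serine synthesis runs from Phgdh, which oxidises 3-phosphoglycerate, through the aminotransferase Psat1 to the phosphatase Psph. Phgdh was at 145 and 145 CPM in uninduced, 119.5 and 169 CPM in IPTG control, 66.1 and 72.6 CPM in CAF-1 OFF and 14.2 and 28.2 CPM in HOXA9 OFF libraries. It fell in HOXA9 OFF cells (-2.77, SE 0.31, FDR 0.000184) and was intermediate in CAF-1 OFF cells, above HOXA9 OFF (1.71, SE 0.30, FDR 0.00219) and at -1.06 against uninduced cells. In its transcript 94.7% of 50-base windows were unique among annotated coding transcripts, so part of its reads may be shared. Psat1, an abundant transcript of the list, was at 1627 and 1472 CPM in uninduced, 1558 and 1502 CPM in IPTG control, 1248 and 1075 CPM in CAF-1 OFF and 289 and 299.6 CPM in HOXA9 OFF libraries. It fell in HOXA9 OFF cells (-2.40, SE 0.12, FDR 1.43e-05) and was higher in CAF-1 OFF cells than there (1.98, SE 0.12, FDR 3.31e-05). Psph fell by 1.39 on the log2 scale in HOXA9 OFF cells, with no call between the OFF conditions (0.50, SE 0.29, FDR 0.179).

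Mitochondrial one-carbon metabolism takes serine through Shmt2 to glycine and a folate-bound carbon, which Mthfd2 and Aldh1l2 then oxidise. Shmt2 was at 1036 and 987 CPM in uninduced, 979 and 1089 CPM in IPTG control, 632 and 531 CPM in CAF-1 OFF and 168 and 231 CPM in HOXA9 OFF libraries. Its log2 fold change was -2.34 (SE 0.17, FDR 3.45e-05) in HOXA9 OFF cells and 1.54 (SE 0.17, FDR 0.000259) between CAF-1 OFF and HOXA9 OFF cells. Mthfd2 was at 157 and 175 CPM in uninduced, 156 and 175 CPM in IPTG control, 86.4 and 86.1 CPM in CAF-1 OFF and 68.2 and 75.5 CPM in HOXA9 OFF libraries, below the controls in every OFF library. The values were -1.21 (SE 0.11, FDR 6.98e-05) in HOXA9 OFF and -0.94 in CAF-1 OFF cells, and 0.26 (SE 0.11, FDR 0.0701) between them, with a 95% interval 0.01 to 0.51. Aldh1l2, a 10-formyltetrahydrofolate dehydrogenase, was at 3.87 and 21.3 CPM in uninduced, 4.88 and 20.0 CPM in IPTG control, 0.632 and 0.732 CPM in CAF-1 OFF and 0.109 and 1.19 CPM in HOXA9 OFF libraries. Its uninduced libraries differed over 2-fold, in the same order as the IPTG control libraries, and every OFF library was below every control. The value in HOXA9 OFF cells was -4.24. It ranged from -6.78 without HOXA9 OFF replicate 2 to -2.54 without uninduced replicate 2, and was -5.00 without uninduced replicate 1 and -3.40 without HOXA9 OFF replicate 1. The call was lost at -2.54 and -3.40. In CAF-1 OFF cells it was -4.20.

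Asns, the enzyme that makes asparagine, was at 211 and 209.6 CPM in uninduced, 202 and 227 CPM in IPTG control, 96.6 and 121 CPM in CAF-1 OFF and 83.4 and 97.1 CPM in HOXA9 OFF libraries. It fell in HOXA9 OFF cells (-1.22, SE 0.14, FDR 0.000203), and the difference between the OFF conditions was 0.27 (SE 0.14, FDR 0.129). Its value in CAF-1 OFF against uninduced cells was -0.95. The other members fell in HOXA9 OFF cells as well. These were the mitochondrial phosphoenolpyruvate carboxykinase Pck2 (-0.95), the aminotransferases Gpt2 (-2.21) and Got1 (-1.51) and the proline enzymes Pycr1 (-1.48) and Aldh18a1 (-1.94), with FDR from 2.72e-05 to 0.00285. Gpt2, Pycr1 and Aldh18a1 were 1.46, 1.02 and 1.47 higher on the log2 scale in CAF-1 OFF than in HOXA9 OFF cells, and Pck2 differed by 0.05. Got1 was 0.93 higher (FDR 0.026), a call that was lost without either CAF-1 OFF replicate, in the fit of the compared groups only (0.93, FDR 0.0832) and without HOXA9 OFF replicate 1, where it was 0.51. Without HOXA9 OFF replicate 2 its fall against uninduced cells was -2.10. Cth, which makes cysteine from cystathionine, had at most 1 count in any library, under the 3 counts taken as the floor.

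Of the 9 transporters, 7 were lower in HOXA9 OFF than in uninduced cells (22.1% of all tested genes) and 6 were higher in CAF-1 OFF than in HOXA9 OFF cells (22.2%). Slc7a11, the light chain of the cystine and glutamate exchanger (mm9 chr3:50168858-50247535, minus strand), was at 177 and 148 CPM in uninduced, 192 and 139 CPM in IPTG control, 295 and 358 CPM in CAF-1 OFF and 73.0 and 63.2 CPM in HOXA9 OFF libraries. Its CAF-1 OFF libraries were the highest of all and its HOXA9 OFF libraries the lowest. The log2 fold change was -1.25 (SE 0.19, FDR 0.000796) in HOXA9 OFF and 1.01 in CAF-1 OFF against uninduced cells, and 2.26 (SE 0.19, FDR 9.17e-05) directly between them. Slc3a2, the heavy chain that pairs with Slc7a11 and Slc7a5, was at 354 and 323 CPM in uninduced, 345 and 365 CPM in IPTG control, 342 and 387 CPM in CAF-1 OFF and 137 and 191 CPM in HOXA9 OFF libraries. It lay within the range of the controls in CAF-1 OFF replicate 1 and above it in replicate 2. It fell in HOXA9 OFF cells (-1.05, SE 0.16, FDR 0.000989), and 95.8% of the 50-base windows of its transcript were unique.

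Slc7a5, or LAT1, which imports large neutral amino acids such as leucine, was at 324 and 392 CPM in uninduced, 344 and 405 CPM in IPTG control, 278 and 293 CPM in CAF-1 OFF and 56.5 and 55.2 CPM in HOXA9 OFF libraries. HOXA9 OFF libraries stood far below the others, while CAF-1 OFF libraries lay just under the controls. The values were -2.68 (SE 0.14, FDR 1.41e-05) in HOXA9 OFF cells and 2.35 (SE 0.13, FDR 2.88e-05) between the OFF conditions. Slc1a4, an exchanger of alanine, serine and cysteine, was at 21.1 and 38.0 CPM in uninduced, 23.1 and 35.1 CPM in IPTG control, 19.4 and 17.9 CPM in CAF-1 OFF and 0.760 and 1.93 CPM in HOXA9 OFF libraries. It fell in HOXA9 OFF cells (-4.44, SE 0.47, FDR 0.000156) and was higher in CAF-1 OFF than in HOXA9 OFF cells (3.77, SE 0.47, FDR 0.000440), with -5.27 and 4.60 without HOXA9 OFF replicate 2. Slc7a1, a carrier of arginine and lysine, was at 269.8 and 326 CPM in uninduced, 318 and 311 CPM in IPTG control, 199 and 199 CPM in CAF-1 OFF and 68.3 and 79.1 CPM in HOXA9 OFF libraries. It fell by 2.02 on the log2 scale in HOXA9 OFF cells and was 1.43 (SE 0.12, FDR 0.000100) between the OFF conditions.

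The glycine transporter Slc6a9 was low, at 7.25 and 12.4 CPM in uninduced, 7.28 and 16.4 CPM in IPTG control, 2.84 and 1.78 CPM in CAF-1 OFF and 0.977 and 1.09 CPM in HOXA9 OFF libraries. It was below the controls in every OFF library, with -3.24 (SE 0.50, FDR 0.000983) in HOXA9 OFF cells, -2.08 in CAF-1 OFF cells and 1.15 (SE 0.50, FDR 0.0866) between them. Of its exon bases 30.2% overlap other annotated genes, so its counts are uncertain. Slc1a5, which carries glutamine, fell in HOXA9 OFF cells (-0.95, SE 0.12, FDR 0.000353) and was higher in CAF-1 OFF cells than there (1.03, SE 0.12, FDR 0.000336). Slc38a2, a sodium-coupled neutral amino acid transporter, was at 336 and 369 CPM in uninduced, 356 and 319 CPM in IPTG control, 410.5 and 418 CPM in CAF-1 OFF and 299.6 and 287 CPM in HOXA9 OFF libraries. Its value in HOXA9 OFF cells was -0.26 (SE 0.10, FDR 0.0593), and between the OFF conditions 0.50 (SE 0.10, FDR 0.00487), which is under 1.5-fold. With library size as the only scaling the latter was called (0.73, FDR 0.000713). Slc7a3 was at 0.0890 and 0.513 CPM in uninduced, 0.0707 and 0.491 CPM in IPTG control, 0.211 and 0.105 CPM in CAF-1 OFF and 0.705 and 0.0496 CPM in HOXA9 OFF libraries. These are a handful of reads, and nothing is read from its fold changes.

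Every gene of tRNA charging and export was lower in HOXA9 OFF than in uninduced cells, 12 of 12 (22.1% of all tested genes), with a median of -1.34 and a range of -1.91 to -0.65. The same 12 had values of -1.09 to -0.40 in CAF-1 OFF against uninduced cells. Between the OFF conditions 7 were higher in CAF-1 OFF cells (22.2% of all tested genes) and 5 were not called. The 7 were Wars, Eprs, Tars, Iars, Mars, Yars and Xpot, and the 5 were Aars, Gars, Sars, Cars and Nars.

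Wars, which loads tryptophan, was at 195 and 266 CPM in uninduced, 201 and 295 CPM in IPTG control, 131 and 132 CPM in CAF-1 OFF and 47.1 and 75.9 CPM in HOXA9 OFF libraries. It fell furthest of the group in HOXA9 OFF cells (-1.91, SE 0.27, FDR 0.000669) and was 1.10 (SE 0.27, FDR 0.0102) between CAF-1 OFF and HOXA9 OFF cells. For Yars, the tyrosine enzyme, the levels were 211 and 236 CPM in uninduced, 209 and 260.1 CPM in IPTG control, 127 and 129.9 CPM in CAF-1 OFF and 63.2 and 78.7 CPM in HOXA9 OFF libraries. Its values were -1.66 (SE 0.15, FDR 7.25e-05) and 0.86 (SE 0.15, FDR 0.00200). Iars, for isoleucine, was at 223 and 278 CPM in uninduced, 237 and 281 CPM in IPTG control, 168 and 153 CPM in CAF-1 OFF and 82.8 and 96.8 CPM in HOXA9 OFF libraries, with -1.48 (SE 0.15, FDR 0.000125) and 0.84 (SE 0.15, FDR 0.00240). All 3 had CAF-1 OFF libraries between the controls and the HOXA9 OFF libraries. Xpot, the exportin that carries tRNA out of the nucleus, was at 327 and 404 CPM in uninduced, 333 and 366 CPM in IPTG control, 223 and 194 CPM in CAF-1 OFF and 113 and 155 CPM in HOXA9 OFF libraries. It fell in HOXA9 OFF cells (-1.45, SE 0.18, FDR 0.000306). Its difference between the OFF conditions (0.64, SE 0.18, FDR 0.0163) was no longer called without CAF-1 OFF replicate 1 (0.54, FDR 0.0925) or without HOXA9 OFF replicate 1 (0.42, FDR 0.0656).

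Gars, for glycine (mm9 chr6:54987995-55029498, plus strand), was at 393 and 454 CPM in uninduced, 384 and 475 CPM in IPTG control, 198 and 199 CPM in CAF-1 OFF and 145 and 170.5 CPM in HOXA9 OFF libraries. Its CAF-1 OFF libraries lay close above the HOXA9 OFF libraries and far below the controls. The log2 fold changes were -1.42 (SE 0.14, FDR 0.000119) in HOXA9 OFF and -1.09 in CAF-1 OFF cells, and 0.33 (SE 0.14, FDR 0.0835) between them. Nars, for asparagine, was at 441 and 544 CPM in uninduced, 447 and 586 CPM in IPTG control, 247 and 223 CPM in CAF-1 OFF and 249.7 and 336 CPM in HOXA9 OFF libraries. Here the CAF-1 OFF libraries were below the HOXA9 OFF libraries (-0.32, SE 0.19, FDR 0.198), with a value of -0.75 (SE 0.19, FDR 0.0116) in HOXA9 OFF against uninduced cells. Cars, for cysteine, was at 88.2 and 104 CPM in uninduced, 88.1 and 111 CPM in IPTG control, 50.3 and 51.1 CPM in CAF-1 OFF and 42.3 and 51.6 CPM in HOXA9 OFF libraries. Sars, for serine, was at 372 and 412 CPM in uninduced, 348 and 482 CPM in IPTG control, 209 and 197 CPM in CAF-1 OFF and 191 and 310.3 CPM in HOXA9 OFF libraries. Cars fell by 1.04 and Sars by 0.65 on the log2 scale in HOXA9 OFF cells (FDR 0.000894 and 0.0470), and the differences between the OFF conditions were 0.11 (SE 0.16, FDR 0.584) and -0.30 (SE 0.24, FDR 0.307). Aars, for alanine, which has 2 cores in its promoter window, fell by 0.86 (FDR 0.0245). The calls of Aars, Sars and Nars in HOXA9 OFF cells were lost without uninduced replicate 2 (-0.72, -0.57 and -0.59) and without HOXA9 OFF replicate 1 (-0.49, -0.34 and -0.55), those of Aars and Sars also in the fit of the compared groups only (FDR 0.0586 and 0.0713), and that of Sars without uninduced replicate 1 and with DESeq2 size factors. Between the OFF conditions Aars was called higher in CAF-1 OFF cells without HOXA9 OFF replicate 2 (0.66), and Sars and Ppp1r15a lower without HOXA9 OFF replicate 1 (-0.62 and -0.66). Eprs, Tars and Mars fell in HOXA9 OFF cells (-1.43, -1.19 and -1.25).

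**Figure D4:**
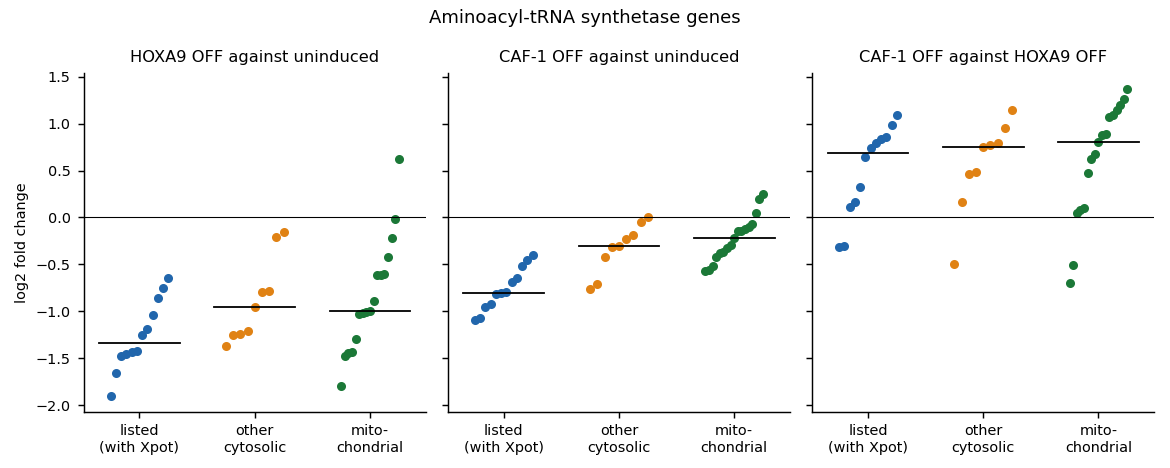
Log2 fold change of aminoacyl-tRNA synthetase genes, with a point per gene and a line at the median, for the 12 listed genes (11 synthetases and Xpot), 9 other cytosolic and 17 mitochondrial synthetases. In HOXA9 OFF against uninduced cells the medians are -1.34, -0.96 and -0.99, in CAF-1 OFF against uninduced cells -0.80, -0.30 and -0.22, and in CAF-1 OFF against HOXA9 OFF cells 0.69, 0.75 and 0.80.

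Most synthetases outside the list were lower in HOXA9 OFF cells as well. Of the 9 other cytosolic enzymes 7 were lower (22.1% of all tested genes) and none higher, led by Kars (-1.37, FDR 3.79e-05), Vars (-1.26, FDR 5.44e-05) and Lars (-1.24, FDR 6.62e-05). Of the 17 mitochondrial enzymes 13 were lower and none higher, led by Mars2 (-1.79, FDR 3.80e-05), Nars2 (-1.48, FDR 0.000108) and Yars2 (-1.45, FDR 3.38e-05). CAF-1 OFF cells had 1 of the 9 and 0 of the 17 passing the call as lower than uninduced cells (3.50% of all tested genes), and 1 and 3 as lower than the IPTG control (3.20%). Between the OFF conditions 5 of 9 and 11 of 17 were higher in CAF-1 OFF cells (22.2%). Whether the listed synthetases differ from the others in their response was not tested.

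Of the 3 other targets only Eif4ebp1 was expressed. It encodes a protein that holds the cap-binding factor eIF4E back from translation, and was at 111 and 107 CPM in uninduced, 107 and 113 CPM in IPTG control, 65.6 and 66.5 CPM in CAF-1 OFF and 57.6 and 64.5 CPM in HOXA9 OFF libraries. The OFF libraries were all below the controls, with -0.84 (SE 0.10, FDR 0.000248) in HOXA9 OFF and -0.73 in CAF-1 OFF cells, and 0.11 (SE 0.10, FDR 0.357) between them. Vldlr and Stc2 had 0 counts in every library. With 3 counts as the upper limit that a count of 0 allows, this bounds them at 0.128 to 0.212 CPM.

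Upstream of ATF4, the list of 14 genes holds eIF2, its kinases and its exchange factor eIF2B, with the GCN2 cofactor Gcn1l1 and the phosphatase subunit Ppp1r15b. In HOXA9 OFF cells 4 were higher, Ppp1r15b (0.96, FDR 0.0363) among them, and 8 lower, Gcn1l1 (-0.78, FDR 0.00137) among them, where 25.2% and 22.1% of all tested genes were called. The share that was higher is near that of all genes. The rise was led by Eif2ak3, or PERK, the kinase of endoplasmic reticulum stress (1.33, FDR 8.70e-05), and the fall by the exchange factor subunit Eif2b3 (-1.78, FDR 3.16e-05) and the eIF2 subunit Eif2s1 (-1.23, FDR 2.86e-05). CAF-1 OFF cells had 0 of the 14 called higher and 1 lower than uninduced cells (10.5% and 3.50% of all tested genes). Of 16 ATF6 and XBP1 chaperone genes, which report the other branches of the unfolded protein response, 3 were higher and 2 lower in HOXA9 OFF cells, with Edem1 (1.25, FDR 0.000552), Xbp1 (1.21, FDR 0.000165) and Manf (-0.79, FDR 0.00205) as the largest. Both shares lie below the 25.2% higher and 22.1% lower of all tested genes. Set against HOXA9 OFF, CAF-1 OFF cells had 6 of the 16 higher (22.2% of all tested genes) and 3 lower (21.4%). Of 9 factors that can dimerize with ATF4, 5 were higher (25.2% of all tested genes) and 1 lower (22.1%) in HOXA9 OFF cells, led by Fos (3.59, FDR 0.000266), Jun (3.14, FDR 0.000909) and Jdp2 (1.83, FDR 6.48e-05). The HOXA9 OFF libraries stood apart in Fos (62.3 and 154 CPM) and Jun (42.3 and 87.1 CPM). The one called lower was Cebpg (-0.95, FDR 0.00176), named after its value was seen. Cebpa was not called, at 246 and 270 CPM in uninduced and 182 and 163 CPM in HOXA9 OFF libraries. Between the OFF conditions 2 of the 9 were higher (22.2% of all tested genes) and 4 lower (21.4%) in CAF-1 OFF cells. Fos and Jun were lower in CAF-1 OFF than in HOXA9 OFF cells (-3.94, FDR 0.000271 and -2.65, FDR 0.00232).

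Folate enzymes outside the list fell in HOXA9 OFF cells, 7 of 10 tested (22.1% of all tested genes), with none higher. Shmt1 (-2.13, FDR 1.70e-05), the cytosolic partner of Shmt2, Gcsh (-1.97, FDR 5.73e-05), of the glycine cleavage system, and Mthfd1 (-1.84, FDR 1.94e-05) led. Set against HOXA9 OFF, CAF-1 OFF cells had 7 of the 10 higher (22.2%) and 1 lower (21.4%). Of 9 glutathione and NRF2 genes 2 were higher and 1 lower in HOXA9 OFF cells: Hmox1, haem oxygenase (2.99, FDR 0.00519), Gsr, glutathione reductase (2.06, FDR 0.000488), and Gclc, which starts glutathione synthesis (-0.92, FDR 0.000460). These shares too lie below 25.2% and 22.1%. The HOXA9 OFF libraries stood apart in Hmox1, at 59.3 and 208 CPM. Between the OFF conditions 2 were higher in CAF-1 OFF, the share of all genes (22.2%), and 4 lower (21.4%).

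Levels between genes can be set side by side only per length, here that of all annotated exons merged. In uninduced cells Shmt2 stood at 444 ± 15.2 CPM per kb (SD, n = 2), Psat1 at 364 ± 25.8 and Atf4 at 309 ± 0.649 CPM per kb. Nars (187 ± 27.6 CPM per kb) and Gars (177 ± 18.0 CPM per kb) did not differ beyond their spread. The order depends on the length used: by the length of 1 transcript a gene, Psat1 would stand above Shmt2, and Ddit3 above Nars. Of the low genes, Slc6a9, Aldh1l2, Atf3, Nupr1 and Slc7a3 were under 2 CPM per kb of merged exons.

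The 2 libraries of a group differed in the listed genes together, mostly in 1 direction. Replicate 2 was above replicate 1 in 35 of 45 genes in uninduced cells, 40 in IPTG control, 16 in CAF-1 OFF and 38 in HOXA9 OFF cells, where the share over all tested genes was 49.1%, 49.6%, 50.5% and 45.1%. All 12 genes of tRNA charging and export were higher in replicate 2 of the uninduced, IPTG control and HOXA9 OFF groups, and 4 of 12 in CAF-1 OFF cells. On CPM + 0.5, the median log2 ratio of replicate 2 to replicate 1 over the listed genes was 0.22, 0.29, -0.05 and 0.31 in the 4 groups. Libraries lay at least 2-fold apart for 3 listed genes in uninduced cells (2.30% of all tested genes), 4 in IPTG control (2.86%), 0 in CAF-1 OFF (2.68%) and 6 in HOXA9 OFF cells (5.64%). Nupr1 and Aldh1l2 were among them in 3 groups and Ddit4 in 2. A ratio of 1 library to 1 library has no test.

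**Figure D5:**
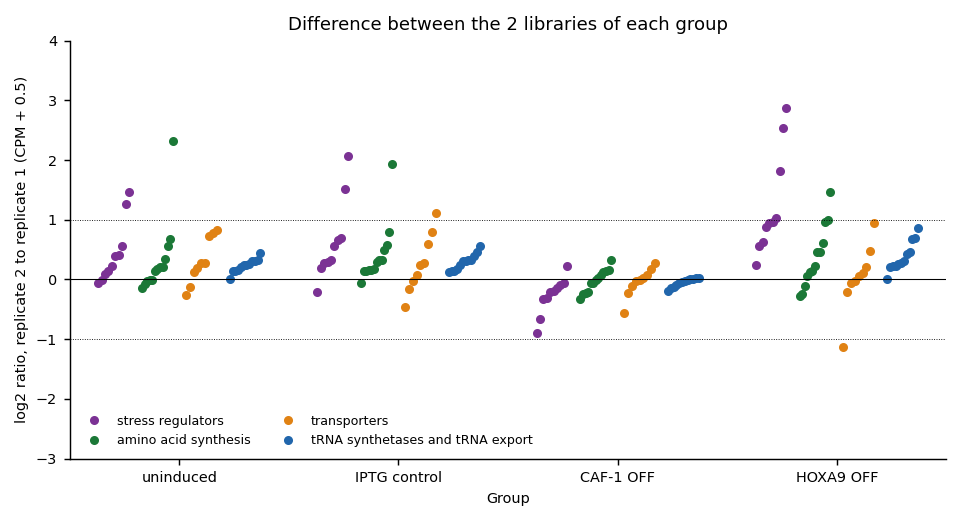
Log2 ratio of replicate 2 to replicate 1 (on CPM + 0.5) for the listed genes of 4 subgroups in each group, with a point per gene and dotted lines at 2-fold. The points of tRNA charging and export lie above zero in the uninduced, IPTG control and HOXA9 OFF groups and around zero in CAF-1 OFF, and the highest points in HOXA9 OFF cells are Trib3 and Atf3.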

How the data were processed

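The 8 stranded RNA libraries used here are of mouse iGMPs, 4 groups of 2 (NEBNext UltraDirectional kit). The study also shows RNA-seq of iGMPs at an earlier time after induction, which is not part of these libraries. The authors mapped reads to mm9 with STAR, took counts per gene with HTSeq and deposited 1 file of raw counts per library. The strand setting of the counting is not given in the sources used here, so overlapping and antisense genes are uncertain. The 5 summary rows of each file were left out of library sizes. Reads assigned to no feature were 14.6% of all reads listed in IPTG control replicate 1 and 5.30 to 7.79% in the others.

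Counts as deposited were tested with edgeR 4.0.16 in R 4.3.3 (quasi-likelihood test, TMM factors 0.894 to 1.06, filterByExpr, 1 fit to all 8 libraries, Benjamini-Hochberg adjustment over 13080 genes, biological coefficient of variation 18.9%). Genes were called at FDR under 0.05 and at least 1.5-fold. DESeq2 1.42.0, other scalings, no filter on low counts, compared groups only, a replicate block, a stricter threshold, the IPTG control as reference and each library left out were alternatives. Levels are TMM-scaled CPM, replicate ratios use CPM + 0.5, and 3 counts were taken as the floor (0.128 to 0.212 CPM), which covers counting error only. The edgeR script was tested on simulated counts.

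The listed genes and all context and marker lists were chosen with earlier results of these data known. By rule the text names, in each subgroup, the 4 genes of largest change in each comparison and genes whose libraries lay over 2-fold apart in at least 2 groups. Other members are named by role. Positions of genes are those of mm9. Promoter sequences are from RefSeq on GRCm38.p6.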

Additional observations from a re-analysis of the deposited data

Results flagged for a closer look

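In Atf3 and Slc7a11 the libraries of the OFF conditions lay on opposite sides of the uninduced libraries, and the direct comparison of CAF-1 OFF with HOXA9 OFF cells passed the call in edgeR. Atf3 rose in HOXA9 OFF cells and lay below uninduced cells in both CAF-1 OFF libraries, a difference between the conditions of -5.86 (SE 0.90, FDR 0.00124) on the log2 scale. Its level rests on few reads outside HOXA9 OFF cells. Slc7a11 fell in HOXA9 OFF cells and was above every other library in both CAF-1 OFF libraries, a difference of 2.26 (SE 0.19, FDR 9.17e-05). Against uninduced cells the CAF-1 OFF values are a description: Atf3 did not pass the call there, and Slc7a11 passed it but not without either uninduced replicate or without CAF-1 OFF replicate 2. The libraries of these groups did not overlap in either gene.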

How the results depend on the processing

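Calls in HOXA9 OFF against uninduced cells numbered 37 and ranged from 27 at FDR 0.01 and 2-fold to 39, and those in CAF-1 OFF against HOXA9 OFF cells numbered 23 and ranged from 14 at that stricter threshold to 25. Apart from that threshold, 31 of the 37 and 20 of the 23 called genes held under every alternative. The exceptions were Aars, Aldh1l2, Atf5, Nars, Sars and Trib3 in the first, and Atf5, Got1 and Xpot in the second. With a library left out, an arm of 1 library was assumed to vary like the others: these counts then ran from 31 to 39 and from 21 to 25. In the contrasts given as description, CAF-1 OFF against uninduced cells went from 18 calls to 1 at the stricter threshold and to 2 to 10 without 1 library, and CAF-1 OFF against IPTG control from 20 to 1 and to 2 to 12. The median in HOXA9 OFF cells (-1.25) was -1.44 by library size only and -1.33 to -1.19 without 1 library, and that in the IPTG control (0.03) -0.12 to 0.17.

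In the comparisons of HOXA9 OFF with uninduced and with CAF-1 OFF cells, fold changes of 14 genes changed sign in 16 results, none of them called as reported above. Single genes were not followed in IPTG control against uninduced cells. In HOXA9 OFF against uninduced cells, with library size only, Ddit4 was -0.10 and Sesn2 -0.19. Sesn2 was -0.029 without a filter, -0.016 with the compared groups only and -0.0020 with the replicate block. Without 1 library Ddit4 ran from -0.48 to 1.06, Sesn2 from -0.35 to 0.31, Nupr1 from -1.25 to 1.18 and Ppp1r15a from -0.80 to 0.18. Slc7a3, which rests on a handful of reads, ran from -0.46 to 1.98. In CAF-1 OFF against HOXA9 OFF cells, Atf4 was 0.13 and Ddit3 0.14 with library size only. Without 1 library the range was -0.36 to 0.20 for Atf4, -0.49 to 0.45 for Ddit3, -0.12 to 0.21 for Pck2, -0.66 to 2.36 for Trib3, -0.81 to 2.57 for Aldh1l2, -0.21 to 0.66 for Aars, -0.036 to 0.25 for Cars, -0.089 to 0.19 for Chac1, -1.33 to 0.85 for Nupr1, -0.66 to 0.33 for Ppp1r15a and -0.62 to 0.079 for Sars. The cause was not tested.

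Same-numbered libraries did not pair throughout. Their deviations correlated at 0.48 between uninduced and IPTG control, 0.30 and 0.32 between these and HOXA9 OFF, and -0.04, -0.02 and 0.08 between CAF-1 OFF and the others, across all tested genes, which are not replicates. Over the 45 listed genes these were 0.91, 0.18 and 0.22, and -0.13, -0.15 and -0.24. With the replicate block Ddit3 (-0.73, FDR 0.0208) and Chac1 (-0.76, FDR 0.0410) were also called in HOXA9 OFF against uninduced cells, and Sesn2 (-0.75, FDR 0.0217) in CAF-1 OFF against HOXA9 OFF cells. With it 39 listed genes were called in HOXA9 OFF against uninduced cells, 24 in CAF-1 OFF against HOXA9 OFF, 24 in CAF-1 OFF against uninduced, 26 in CAF-1 OFF against IPTG control and 0 in IPTG control against uninduced cells. With 2 libraries a group, small differences were not detectable.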

Other observations

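Lars2, the mitochondrial leucyl-tRNA synthetase, was named after its values were seen. It had 5714 and 5048 counts in uninduced, 42698 and 9600 in IPTG control, 4154 and 4364 in CAF-1 OFF and 3943 and 10318 in HOXA9 OFF libraries. The IPTG control library with 42698 counts is the one in which 14.6% of reads fell in no feature. Lars2 had the lowest value of the mitochondrial synthetases in CAF-1 OFF against IPTG control cells (-3.01), which rests on these IPTG control libraries. Its log2 fold change in IPTG control against uninduced cells was 2.94 (SE 0.72, FDR 1.00) in edgeR.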
